A study of Mus musculus with 12 samples.

Results

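Hyaluronan is a long, unsulphated sugar chain of the extracellular matrix, made of alternating glucuronic acid and N-acetylglucosamine. The HAS enzymes build it at the plasma membrane from UDP-glucuronic acid and UDP-N-acetylglucosamine and extrude it from the cell, hyaluronidases cut it, and receptors and link proteins anchor it at the cell surface and in the matrix. Fibroblasts are a main source of it, and HAS2 is usually their main synthase. The 10 genes described here are the mouse synthases Has1, Has2 and Has3, the precursor enzyme Ugdh, the hyaluronidases Hyal1 and Hyal2, the receptor Cd44, the binding protein Tnfaip6 and the link proteins Hapln1 and Hapln4. All 10 were found by symbol among the 32544 rows of the table. The set was chosen by the level of Has2, which was among the genes with the largest falls after vesicle treatment. The other 9 were added as the rest of the hyaluronan system. Values of Has2 against untreated cells are therefore given as a description, with no test.

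The cells were 3T3, a mouse fibroblast line. Some of them received extracellular vesicles (EVs), the membrane-bound particles that cells shed, from breast cancer cells that differed in CRIPTO. There were 4 groups of 3 libraries. One group was untreated. The other groups had received, for 24 h, EVs from the human breast cancer line MDA-MB-468, whose cells were control (shCon), knocked down for CRIPTO (shCr) or overexpressing CRIPTO (CrOE). CRIPTO is a membrane-anchored co-receptor of the TGF-beta family pathways. No time is given for the untreated cells, and no group is labelled as given vehicle alone. In comparisons with untreated cells, EVs and the handling that came with them therefore cannot be told apart. The labels do not say whether libraries of a group came from separate cultures or EV preparations, so p-values measure the spread between these libraries, which may be technical. The CrOE columns carry the protein's name alone and were assigned by elimination, since the knockdown columns are named shCr. No group is labelled as a control for overexpression. For CrOE EVs, the CRIPTO level and other differences of the donor cells therefore cannot be told apart.

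Library totals were 25960054 to 37774020 estimated counts, and 14279 genes passed the filter on low counts. Of the 10 genes, 9 passed. Hapln1, a cartilage link protein that ties hyaluronan to aggrecan, did not: it had 1 to 5 counts in each library, and no difference between groups was detectable at this depth. All 8 fibroblast markers were detected in the untreated, shCon and shCr EV groups. After CrOE EVs Lum was at no more than 0.0291 CPM, within the floor of 3 counts, against 3.42 to 4.47 CPM untreated. Their summed level, in CPM (counts scaled to the TMM-adjusted library size), was 14310 to 15030 untreated, 16660 to 16820 with shCon, 11010 to 12730 with shCr and 4641 to 4823 with CrOE EVs. Col1a1 and Col1a2 made up most of this sum. With shCon EVs Col1a1 and Pdgfrb rose (log2 fold changes 0.53 and 0.33) while Dcn and Thy1 fell (-0.56 and -0.57). With shCr EVs Col1a1, Col1a2, Col3a1 and Thy1 fell (-0.36, -0.52, -0.475 and -0.58) while Pdgfrb and Lum rose (0.42 and 0.54). With CrOE EVs all 8 markers fell, where 37% of all tested genes were called lower. Apart from Lum, their changes ran from -1.14 (Col1a2) to -3.44 (Dcn). The 12 epithelial markers summed to at most 4.41 CPM in any library, with Epcam at 0 counts throughout. Members of this list moved in different directions after CrOE EVs: Cldn4 had no count in untreated cells and averaged 1.15 CPM, Krt18 rose (log2 fold change 1.27) and Krt7 fell (-1.38). The 7 endothelial markers summed to 2.24 to 3.33 CPM untreated, 5.51 to 6.23 with shCon EVs and 4.30 to 5.64 with shCr EVs. With CrOE EVs the sum was 17.5 to 20.4 CPM, mostly Vwf, which averaged 16.0 CPM there and 1.82 CPM untreated. Tek, Pecam1 and Kdr also rose with CrOE EVs, to averages of 1.18, 0.648 and 0.403 CPM. Vwf and Kdr rose with the other EVs too, by log2 fold changes of 1.33 and 2.01 with shCon EVs and 1.08 and 2.47 with shCr EVs. Kdr was lower with CrOE than with shCr EVs (-0.93). Cdh5 and Tie1 averaged 0.187 and 0.112 CPM with CrOE EVs, and Emcn had no more than 3 counts in any library. The 9 macrophage and leukocyte markers, with Adgre1 and Tyrobp at no more than 3 counts in any library, summed to 128.8 to 140.8 CPM untreated. The sum was 123.1 to 134.2 with shCon, 173.7 to 246.3 with shCr and 32.7 to 38.5 CPM with CrOE EVs. Most of that sum was Lyz2 and Cd14, which moved apart: Lyz2 rose with shCon (0.73) and shCr EVs (1.64) while Cd14 fell (-0.91 and -0.70), and both fell with CrOE EVs (-5.23 and -1.36). The part of these marker shifts in the results below was not tested. In bulk RNA, fewer cells that express a gene and less of its RNA per cell cannot be told apart.

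Promoter sequence was available from RefSeq (build GRCm38.p6) for 7 of the 10 genes, and it is shown for Ugdh and Hyal1 because these 2 genes, besides Has2, were lower after CrOE EVs than in each of the other groups. The stretches below lie before the annotated start site and hold no exon of GENCODE M21. Their capitals mark the letters GGGCGG, a core recognised by Sp1-family factors, on either strand. The Ugdh stretch covers bases 250 to 108 before the start and the Hyal1 stretch bases 250 to 24, so neither reaches it. Ugdh has 1 more match, on the other strand, in the part not shown. The Ugdh stretch is chr5:65435950-65436092 on the minus strand and the Hyal1 stretch is chr9:107576700-107576926 on the plus strand, both in GRCm38 and not in mm39, the build named in the submitters' processing notes.
Ugdh: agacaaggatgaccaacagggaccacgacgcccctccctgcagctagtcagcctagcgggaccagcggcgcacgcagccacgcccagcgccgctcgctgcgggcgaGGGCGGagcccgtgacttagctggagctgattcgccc
Hyal1: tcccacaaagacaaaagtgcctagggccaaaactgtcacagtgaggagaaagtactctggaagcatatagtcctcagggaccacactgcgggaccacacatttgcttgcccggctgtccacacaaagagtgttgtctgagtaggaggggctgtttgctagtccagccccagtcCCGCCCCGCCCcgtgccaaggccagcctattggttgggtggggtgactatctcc

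The capitals in the Hyal1 stretch are 2 overlapping matches on the other strand. Over the 250 bases before the start, GGGCGG occurred in Hyal1, Hyal2, Tnfaip6 and Ugdh, and it occurs in 32.7% of all 32851 promoters of that length. CCAAT, searched in the same way on both strands, occurred in Has1, Hyal1 and Tnfaip6 (33.8% of all promoters). The cAMP response element TGACGTCA occurred in Has1 (1.55%) and the AP-1 letters TGANTCA in Tnfaip6 (6.75%). TATAAA (12.4%) and CACGTG (6.02%) occurred in none of the 7. These matches describe the sequence only.

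Has2 was the synthase that carried nearly all synthase reads of untreated fibroblasts, and its level was far lower in every EV group. Has2 stood at 168, 175 and 171 CPM in the 3 untreated libraries. The shCon EV libraries were at 13.0, 11.4 and 9.98 CPM, the shCr EV libraries at 11.7, 10.7 and 7.53, and the CrOE EV libraries at 3.68, 3.29 and 3.26. The untreated libraries lay far above all EV libraries, and the CrOE EV libraries lay below all others. Against untreated cells the log2 fold changes of Has2 were -3.90 (SE 0.13) with shCon, -4.12 (SE 0.13) with shCr and -5.65 (SE 0.15) with CrOE EVs, levels 14.9-fold, 17.3-fold and 50.3-fold lower. These 3 comparisons share the untreated libraries. The lowest library held 113 counts of Has2, so its level after CrOE EVs is measured above the detection floor of 3 counts. Exons of Has2 overlap those of the antisense gene Has2os over 182 bases, 4.30% of its exon length. Has2os has no row in the table. The libraries were directional, but the strand setting of the counting is not given in the sources used here.

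**Figure D1:**
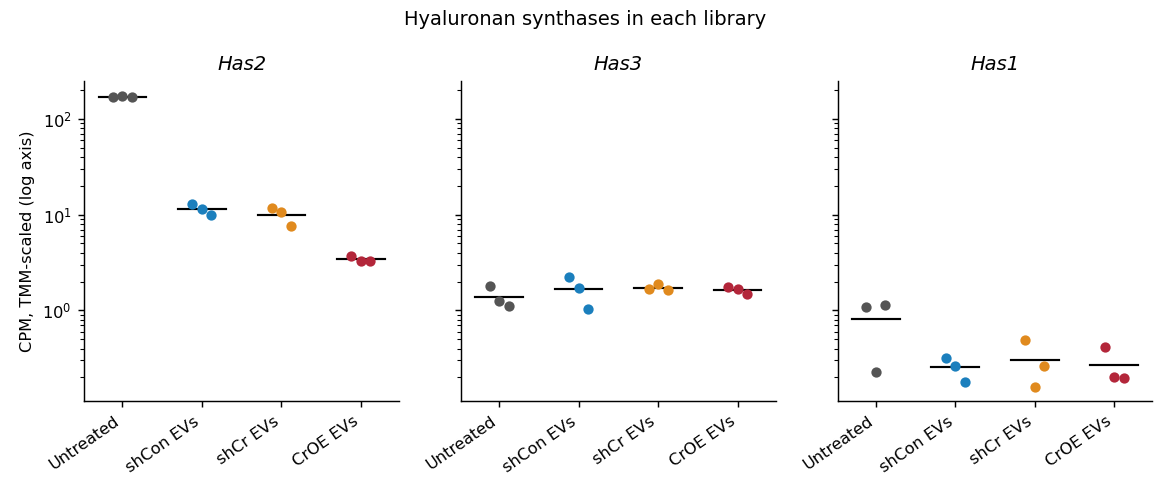
Levels of the 3 hyaluronan synthases in CPM (log axis, shared by the panels) in each library of the 4 groups; points are libraries and lines are group means. Has2 lies between 168 and 175 CPM in untreated cells and between 3.26 and 13.0 CPM after EVs, while Has3 stays between 1.04 and 2.25 CPM and Has1 between 0.160 and 1.14 CPM.

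The differences in Has2 between kinds of EV were not used to choose the genes and were tested. The EV libraries compared are those in which the fall of Has2 was seen, so these tests are not fully independent of the choice. Has2 was lower with CrOE than with shCon EVs, by a log2 difference of -1.75 (SE 0.15). The adjusted p was 3.13e-07, here and below from edgeR's quasi-likelihood F-test, Benjamini-Hochberg adjusted over every gene tested. It was also lower with CrOE than with shCr EVs (-1.54, SE 0.15, adjusted p = 1.06e-06, edgeR). In both, all 3 CrOE EV libraries lay below all 3 of the other group. Between shCr and shCon EVs the libraries overlapped, with a log2 difference of -0.22 whose 95% interval ran from -0.53 to 0.10 (adjusted p = 0.398, edgeR). A difference between these kinds of EV was thus not shown, and its size is bounded only by that interval.

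Has1 and Has3, the other synthases, had few reads. Has3, which makes shorter chains, was at 1.79, 1.26 and 1.10 CPM in untreated cells. The shCon EV libraries held 2.25, 1.73 and 1.04 CPM, the shCr EV libraries 1.66, 1.89 and 1.64, and the CrOE EV libraries 1.78, 1.69 and 1.49. All groups overlapped, and Has3 passed the test in none of the 6 comparisons (adjusted p = 0.365 to 0.944, edgeR). Its log2 difference between CrOE EVs and untreated cells was 0.25, with a 95% interval from -0.35 to 0.84. Has3 shares 352 bases of exon, 5.52% of its exon length, with Chtf8 on the opposite strand. Has1 had 5 to 31 counts in a library. Its 1.10, 0.229 and 1.14 CPM in untreated cells were uneven, with 1 library among the EV-treated ones, which ranged from 0.160 to 0.494 CPM. Has1 fell after shCon EVs (log2 fold change -1.67, SE 0.57, adjusted p = 0.0344, edgeR) and CrOE EVs (-1.61, SE 0.55, adjusted p = 0.0172, edgeR), and was no call after shCr EVs (-1.45, adjusted p = 0.0522, edgeR). These calls are fragile. The shCon EV call was lost without any 1 shCon EV library or without untreated replicate 1 or 3 (adjusted p up to 0.134, edgeR). The CrOE EV call was lost without untreated replicate 1 or 3 or CrOE EV replicate 2 or 3 (adjusted p up to 0.0789, edgeR). Without untreated replicate 2, which held 6 counts of Has1, the difference after shCr EVs became a call (adjusted p = 0.0039, edgeR), as it did without shCr EV replicate 1 (adjusted p = 0.0209, edgeR). It was also a call without a low-count filter (adjusted p = 0.043, edgeR) and with the replicate block (adjusted p = 0.0237, edgeR).

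Since Has2 dropped while Has3 did not, the makeup of the synthase reads shifted. Has2 made up 98.7% ± 0.428 of the reads of the 3 synthases in untreated cells (SD, n = 3). Its share was 85.9% ± 2.87 with shCon, 82.7% ± 2.55 with shCr and 64.0% ± 1.67 with CrOE EVs. Divided by exon length, the shares were 99.0%, 89.7%, 87.1% and 71.7%. Has2 remained the most abundant synthase per length in every group: after CrOE EVs it was at 0.804 ± 0.0555 CPM per kb of exon (SD, n = 3), against 0.259 ± 0.0231 for Has3 and 0.05995 ± 0.0271 for Has1. These shares follow from the values that chose Has2 and are not a further test.

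The level per length also placed Has2 among the other genes. In untreated cells the order of levels in CPM per kb was Has2 at 40.4, Ugdh at 25.8, Cd44 at 22.9, Hyal2 at 12.8, Hapln4 at 4.70, Tnfaip6 at 2.93, Hyal1 at 1.99, Has3 at 0.217 and Has1 at 0.182. Neighbours in this order did not overlap between libraries, except Has3 and Has1. After CrOE EVs the order was Cd44 at 18.3, Hyal2 at 15.8, Ugdh at 8.92, Hapln4 at 5.71, Tnfaip6 at 2.33, Hyal1 at 0.893, Has2 at 0.804, Has3 at 0.259 and Has1 at 0.05995. Has2 thus moved from the first place to the seventh, where its libraries (0.769 to 0.868) lay within the range of Hyal1 (0.786 to 1.02) or below it. The level of Hyal1 per length is uncertain, because 50.8% of its exon length overlaps another gene, Naa80, on the same strand. Exon lengths are from GENCODE M21 and may differ from the lengths the authors' annotation would give.

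By Pearson's r of log2 CPM over the 12 libraries, the genes whose pattern was most like that of Has2 were Ahr (0.992), Tnc (0.989), Aoc3 (0.988), Emp1 (0.988) and Ccnb2 (0.986). Ahr was at 40.3 CPM on average in untreated cells and at 16.8, 16.9 and 10.5 CPM after shCon, shCr and CrOE EVs. Of the 9766 genes compared, all averaging 3 or more on the log2 CPM scale, 252 had an r above 0.9. The 12 libraries fall into 4 groups and share their treatment, so these values describe group patterns.

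Of the 8 tested genes other than Has2, 5 were lower and 1 was higher with shCon EVs than in untreated cells. Over all tested genes, 20.2% were called lower and 18% higher. Has1, Ugdh, Hyal2, Cd44 and Tnfaip6 were lower, Hapln4 was higher, and Has3 and Hyal1 passed no test. After shCr EVs 4 were lower (Ugdh, Hyal2, Cd44 and Tnfaip6) and 0 higher, beside 18.8% lower and 18.4% higher over all genes. After CrOE EVs 4 were lower (Has1, Ugdh, Hyal1 and Cd44) and 2 higher (Hyal2 and Hapln4), beside 37% lower and 36.7% higher over all genes. The median log2 fold change of these 8 genes was -0.43, -0.31 and -0.33 in the 3 comparisons, where that of all genes was 0.0070, 0.020 and 0.0080. The genes were chosen with earlier results of these data known, so the counts describe them and are not independent support for a direction.

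**Figure D2:**
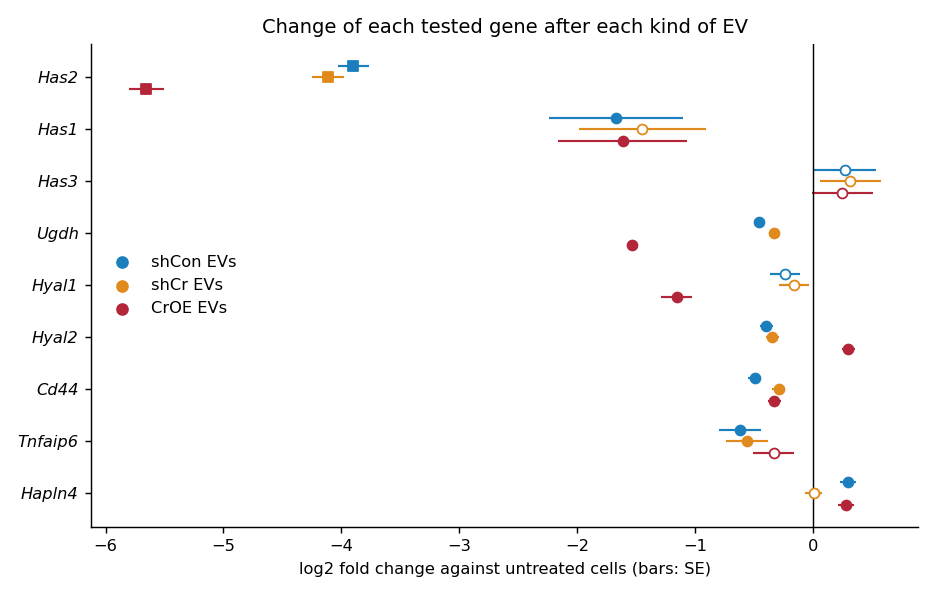
Log2 fold change against untreated cells (horizontal axis, with SE bars) of each tested gene after shCon, shCr and CrOE EVs; filled circles passed the test, open circles did not, and squares mark Has2, which was chosen for this fall and not tested. Has2 lies between -5.65 and -3.90, Ugdh reaches -1.53 after CrOE EVs, and Hyal2 lies left of zero after shCon and shCr EVs and right of it after CrOE EVs.

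Ugdh, the dehydrogenase that turns UDP-glucose into the UDP-glucuronic acid used by the synthases, fell with every kind of EV and most with CrOE EVs. Ugdh was at 178, 173 and 171 CPM in untreated cells. The shCon EV libraries held 123, 127 and 130 CPM, the shCr EV libraries 140.2, 136 and 141, and the CrOE EV libraries 60.04, 61.5 and 59.1. No 2 groups overlapped. The level fell to 0.727 of the untreated one with shCon EVs (log2 fold change -0.46, SE 0.04, adjusted p = 4.89e-06, edgeR), to 0.797 with shCr EVs (-0.33, SE 0.04, adjusted p = 7.66e-05, edgeR) and to 0.346 with CrOE EVs (-1.53, SE 0.05, adjusted p = 7.13e-12, edgeR). CrOE EVs gave less Ugdh than shCon EVs (-1.07, adjusted p = 2.19e-10, edgeR) and shCr EVs (-1.20, adjusted p = 6.09e-11, edgeR). The difference of 0.13 between shCr and shCon EVs passed no edgeR test (adjusted p = 0.0865) and was a call with DESeq2 (adjusted p = 0.0323). The counts of Ugdh were not whole in any library, and 3.24% of its 31-base stretches occur in transcripts of other genes.

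The hyaluronidases moved apart. Hyal2, the membrane-anchored enzyme that starts the breakdown of long chains, was at 40.1, 44.3 and 42.4 CPM in untreated cells. It fell to 32.5, 33.1 and 30.7 CPM after shCon EVs (log2 fold change -0.40, SE 0.05, adjusted p = 0.000102, edgeR) and to 32.3, 34.2 and 33.3 CPM after shCr EVs (-0.35, SE 0.05, adjusted p = 0.000268, edgeR). After CrOE EVs it rose to 51.8, 52.9 and 51.5 CPM (0.30, SE 0.05, adjusted p = 0.000207, edgeR). The CrOE EV libraries lay above all others, and the shCon and shCr EV libraries lay below the untreated ones. CrOE EVs gave more Hyal2 than shCon EVs (log2 difference 0.70, adjusted p = 9.26e-08, edgeR) and shCr EVs (0.65, adjusted p = 1.62e-07, edgeR). shCr and shCon EVs did not separate (0.050, 95% interval -0.080 to 0.18, adjusted p = 0.655, edgeR).

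Hyal1, the lysosomal hyaluronidase that cuts the fragments further, is the neighbour of Hyal2 on the chromosome and went the other way after CrOE EVs. Hyal1 was at 7.95, 7.13 and 7.50 CPM in untreated cells, and at 3.30, 2.97 and 3.85 CPM after CrOE EVs, with no overlap (log2 fold change -1.16, SE 0.13, adjusted p = 3.49e-06, edgeR). After shCon EVs it was at 6.26, 7.30 and 5.58 CPM and after shCr EVs at 7.08, 5.96 and 7.16 CPM, overlapping untreated cells (adjusted p = 0.16 and 0.342, edgeR). It was also lower with CrOE than with shCon EVs (-0.92, adjusted p = 3.31e-05, edgeR) and shCr EVs (-0.997, adjusted p = 1.34e-05, edgeR). These values are uncertain, because 50.7% of the 31-base stretches of Hyal1 also occur in other genes, mainly Naa80, which overlaps it on the same strand and is listed in the table under its older symbol Nat6. Nat6 stood at 19.4 ± 2.01 CPM in the untreated group and 17.9 ± 1.00 in the CrOE EV group (SD, n = 3; adjusted p = 0.335, edgeR). With the counts of Hyal1 and Nat6 summed, the fall after CrOE EVs was much smaller (log2 fold change -0.34, adjusted p = 0.00165, edgeR). It stayed a call against shCon (-0.35) and shCr EVs (-0.46). Nat6, which held most of the summed counts, was itself lower with CrOE than with shCr EVs (-0.33, adjusted p = 0.01, edgeR). Against shCon EVs Nat6 passed no test (adjusted p = 0.0814, edgeR).

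**Figure D3:**
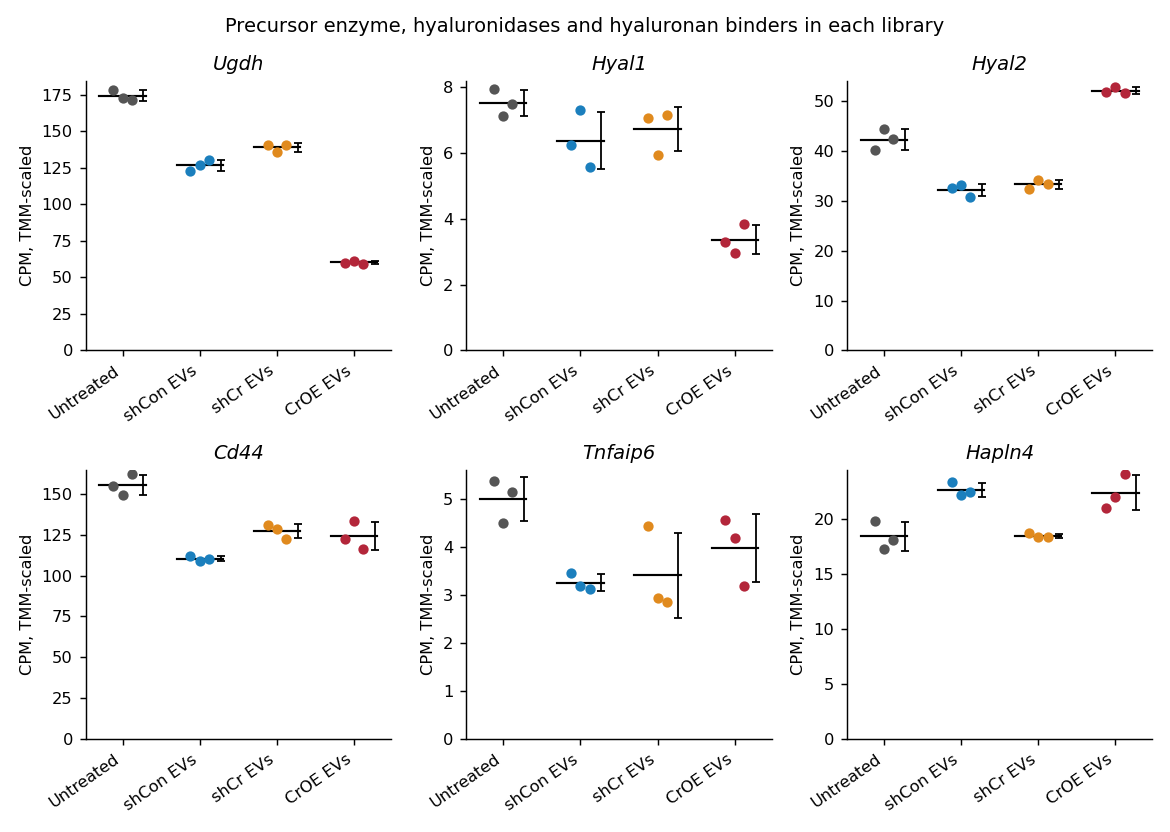
Levels of Ugdh, Hyal1, Hyal2, Cd44, Tnfaip6 and Hapln4 in CPM (vertical axes start at 0) in each library of the 4 groups; points are libraries, lines are means and bars are SD. Ugdh and Hyal1 are lowest after CrOE EVs (59.1 to 61.5 and 2.97 to 3.85 CPM), where Hyal2 is highest (51.5 to 52.9 CPM).

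Cd44, the main cell-surface receptor for hyaluronan, fell modestly with each kind of EV. Cd44 was at 155, 149 and 162 CPM in untreated cells, and every EV library lay below these. The shCon EV libraries held 112, 109 and 110 CPM, the shCr EV libraries 131, 128 and 122, and the CrOE EV libraries 122, 133 and 116. Against untreated cells Cd44 changed by -0.49, -0.29 and -0.33 on the log2 scale in that order (adjusted p = 2.3e-05, 0.00136 and 0.000171, edgeR). The shCon EV libraries lay below those of both other kinds of EV. The difference of 0.20 between shCr and shCon EVs was at the edge of the threshold (adjusted p = 0.0423, edgeR). It was lost without any 1 of 8 libraries, shCon replicates 1, 2 and 3, shCr replicates 1 and 2, untreated replicates 1 and 3 and CrOE replicate 1 (adjusted p up to 0.153, edgeR), with DESeq2's size factors in edgeR, without a low-count filter, with the replicate block and when the other groups were left out of the model. The difference of 0.17 between CrOE and shCon EVs (adjusted p = 0.0168, edgeR) was lost without CrOE replicate 2 (adjusted p = 0.0863) or shCon replicate 2 (adjusted p = 0.0561). Splice variants of Cd44 are not separated in counts per gene.

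Tnfaip6 encodes TSG-6, a secreted protein that moves heavy chains of inter-alpha-inhibitor onto hyaluronan. Tnfaip6 was at 5.38, 4.50 and 5.15 CPM in untreated cells. The shCon EV libraries held 3.47, 3.19 and 3.13 CPM, the shCr EV libraries 4.44, 2.95 and 2.86, and the CrOE EV libraries 4.57, 4.19 and 3.20. It fell after shCon EVs (log2 fold change -0.62, SE 0.18, adjusted p = 0.0165, edgeR) and shCr EVs (-0.56, SE 0.18, adjusted p = 0.0251, edgeR), and passed no test after CrOE EVs (-0.33, 95% interval -0.74 to 0.070, adjusted p = 0.102, edgeR). shCr EV replicate 1 stood above its replicates. Without it Tnfaip6 was a call after CrOE EVs against untreated cells (adjusted p = 0.0322) and was higher with CrOE than with shCr EVs (0.45, adjusted p = 0.0165, edgeR). The call after shCon EVs was lost without untreated replicate 1 or shCon EV replicate 2 or 3 (adjusted p up to 0.0586, edgeR). The call after shCr EVs was lost without untreated replicate 1 or 3 or shCr EV replicate 2 or 3 (adjusted p up to 0.0981) and when the other groups were left out of the model (adjusted p = 0.0638, edgeR).

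Hapln4, a link protein best known from perineuronal nets of the brain, was at 19.9, 17.3 and 18.1 CPM in untreated cells. It rose to 23.4, 22.2 and 22.5 CPM after shCon EVs (log2 fold change 0.30, SE 0.07, adjusted p = 0.00521, edgeR) and to 21.1, 22.02 and 24.2 CPM after CrOE EVs (0.28, SE 0.07, adjusted p = 0.00278, edgeR). After shCr EVs it was at 18.7, 18.4 and 18.4 CPM, within the untreated range (0.0050, 95% interval -0.16 to 0.17, adjusted p = 0.966, edgeR). Hapln4 was lower with shCr than with shCon EVs (-0.29, SE 0.07, adjusted p = 0.0214, edgeR) and higher with CrOE than with shCr EVs (0.28, SE 0.07, adjusted p = 0.00295, edgeR). The shCr against shCon call was lost without any 1 shCon EV library or shCr EV replicate 2 or 3 (adjusted p up to 0.084, edgeR).

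The kinds of EV, whose donor cells were control, knocked down for CRIPTO or overexpressing it, were also compared with each other. Between shCr and shCon EVs, 1 of the 9 tested genes was higher (Cd44) and 1 lower (Hapln4), beside 5.22% higher and 3.51% lower over all genes. Both calls were lost in the leave-one-out fits named above. With CrOE against shCon EVs, 2 were higher (Hyal2 and Cd44) and 3 lower (Has2, Ugdh and Hyal1), beside 36.5% higher and 36.1% lower over all genes. With CrOE against shCr EVs, 2 were higher (Hyal2 and Hapln4) and 3 lower (Has2, Ugdh and Hyal1), beside 36.9% higher and 37% lower. In these last 2 comparisons the shares of the 9 genes are near or below the background.

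The wider pathway was described from 4 further gene lists. Of 11 other symbols of hyaluronan-degrading enzymes, 6 were tested. Cemip, a secreted protein needed for hyaluronan breakdown by fibroblasts, was the most responsive. Cemip stood at 360 ± 6.49 CPM in the untreated group and fell to 267 ± 8.65 with shCon EVs (SD, n = 3; log2 fold change -0.43, adjusted p = 1.07e-05, edgeR). It rose to 445 ± 5.90 after shCr EVs (0.31, adjusted p = 0.000164, edgeR) and fell to 28.8 ± 1.02 after CrOE EVs (-3.64, adjusted p = 2.99e-14, edgeR). It was higher with shCr than with shCon EVs (0.74, SE 0.04, adjusted p = 1.94e-06, edgeR). Tmem2, a cell-surface hyaluronidase, fell from 51.7 ± 9.80 CPM to 26.4 ± 1.94, 25.1 ± 4.19 and 15.1 ± 1.22. The lysosomal hexosaminidase subunit Hexa, which trims the fragments, rose after shCon (log2 fold change 0.66) and shCr EVs (0.93) and fell after CrOE EVs (-0.19). In all, 3 rose and 2 fell after shCon EVs, 4 rose and 1 fell after shCr EVs, and 1 rose and 5 fell after CrOE EVs, with medians of -0.0080, 0.33 and -0.47. Over all genes, 18% rose and 20.2% fell with shCon EVs, 18.4% and 18.8% with shCr EVs, and 36.7% and 37% with CrOE EVs. These shares stand beside the counts of the lists below as well.

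Of 24 other receptors and binding proteins, 13 were tested, and 2 rose and 6 fell after shCon EVs, 2 rose and 5 fell after shCr EVs, and 2 rose and 7 fell after CrOE EVs. Hmmr, a hyaluronan-binding protein that also acts on the mitotic spindle, was at 30.8 ± 2.69 CPM in untreated cells and at 8.04 ± 0.627, 6.01 ± 1.02 and 6.401 ± 0.773 CPM after shCon, shCr and CrOE EVs (log2 fold changes -1.94, -2.36 and -2.26). The hyaluronan-binding proteoglycan Vcan fell from 756 ± 118 to 338 ± 12.8 CPM after shCon EVs and 271 ± 40.5 after shCr EVs. With CrOE EVs it was at 520 ± 55.0 CPM, also lower than in untreated cells (log2 fold change -0.54, adjusted p = 0.00145, edgeR). That level was above those with shCon and shCr EVs (log2 differences 0.62 and 0.94, adjusted p = 0.00054 and 1.48e-05, edgeR). Tlr2, an innate receptor reported to sense hyaluronan fragments, rose slightly after shCon and shCr EVs (0.28 and 0.23) and fell after CrOE EVs (-1.61). C1qbp, also known as a hyaluronan-binding protein, rose after CrOE EVs from 113 ± 1.69 to 226 ± 3.90 CPM. The medians of the list were -0.089, 0.0060 and -0.54, and 36.7% of all genes rose and 37% fell with CrOE EVs.

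Genes of UDP-sugar supply changed in both directions. All 18 listed genes were tested: 3 rose and 5 fell after shCon EVs, 3 rose and 5 fell after shCr EVs, and 6 rose and 7 fell after CrOE EVs, with medians of -0.027, -0.067 and -0.089. The counts with CrOE EVs are near the shares over all genes, 36.7% and 37%. Gnpnat1, an enzyme of UDP-N-acetylglucosamine synthesis, rose from 25.97 ± 1.97 CPM untreated to 101 ± 6.08 with CrOE EVs (log2 fold change 1.96, SE 0.14, adjusted p = 3.44e-08, edgeR). Its exons overlap those of Styx on the opposite strand over 81.9% of their length, so its counts are uncertain. Pgm3, which acts in the same branch, fell with shCon (-0.76) and shCr EVs (-0.97) and passed no test with CrOE EVs (0.12, adjusted p = 0.122, edgeR). Its exons overlap Dop1a on the opposite strand over 28.3% of their length. Gfpt1, the entry enzyme of that branch, rose after CrOE EVs from 156 ± 9.91 to 237 ± 6.32 CPM (0.60, adjusted p = 1.2e-06, edgeR). It lies outside the rule for named genes and was chosen after its values were seen. Hk2, a hexokinase, rose from 43.0 ± 5.10 to 171 ± 7.84 CPM, and Nagk, which salvages N-acetylglucosamine, fell from 78.5 ± 5.66 to 36.2 ± 1.33.

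Enzymes that build the sulphated glycosaminoglycans use some of the same precursors. Of 25 listed, 24 were tested: 7 rose and 5 fell after shCon EVs, 7 rose and 5 fell after shCr EVs, and 7 rose and 13 fell after CrOE EVs, with medians of 0.052, 0.052 and -0.22. Glce, the epimerase that forms iduronic acid in heparan sulphate, rose from 27.5 ± 3.16 CPM to 144 ± 8.01 after CrOE EVs (log2 fold change 2.39, SE 0.10, adjusted p = 2.19e-10, edgeR). Csgalnact1, which starts chondroitin chains, fell from 54.0 ± 1.17 to 14.0 ± 1.05 CPM (-1.95, SE 0.08, adjusted p = 8.45e-11, edgeR), and the chondroitin sulphotransferase Chst12 from 79.5 ± 3.77 to 23.0 ± 0.691 (-1.79). Over the 61 tested genes of the 4 lists, 15 rose and 18 fell with shCon EVs (18% and 20.2% of all genes), 16 rose and 16 fell with shCr EVs (18.4% and 18.8%), and 16 rose and 32 fell with CrOE EVs (36.7% and 37%). Between shCr and shCon EVs, 3 were higher (Cemip, Hexa and Gusb, a lysosomal glucuronidase) and 1 lower (Hk2) of these 61, which is at or below the 5.22% and 3.51% over all genes. Gusb was chosen after its values were seen. With untreated and CrOE libraries left out of the model, 2 of the listed genes were calls. Without any 1 shCon EV library there were 2, and without shCr EV replicate 1 there were 7.

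**Figure D4:**
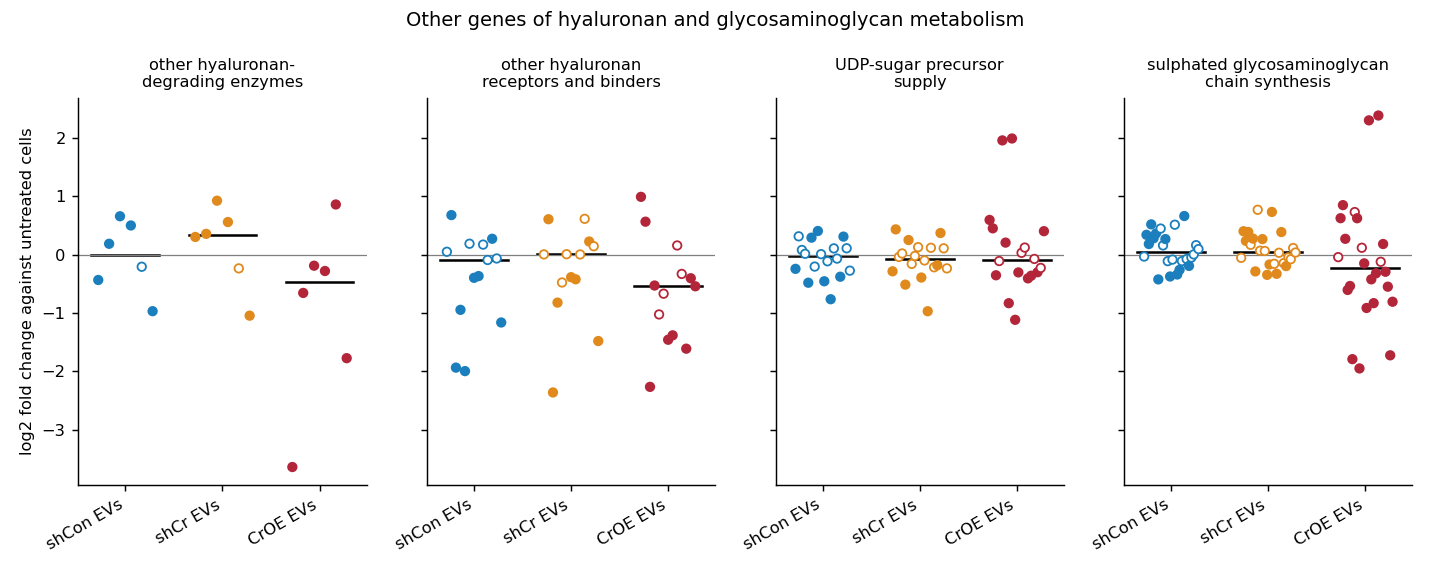
Log2 fold changes against untreated cells (vertical axis) of the tested genes of 4 lists after shCon, shCr and CrOE EVs; each circle is a gene, filled if it passed the test, and black lines are medians. After CrOE EVs the points spread widest, from Cemip at -3.64 to Glce at 2.39.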

How the data were processed

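RNA of 12 libraries was measured by poly(A)-selected, directional RNA sequencing, per the labels' protocols. The values deposited by the authors, 1 row for each gene symbol, are estimated counts and were not scaled between libraries. They were treated as estimated counts because 39.8% of the values were not whole. The submitters' processing notes name featureCounts and the build mm39; the aligner, annotation, versions and strand setting are not given in the sources used here. The test had been planned for whole counts, so values were rounded for it. Exon lengths, overlaps and shared 31-base stretches came from GENCODE M21, which is on GRCm38 and not on mm39. Genes were filtered with filterByExpr and scaled by TMM, and edgeR 4.0.16 (R 4.3.3; quasi-likelihood F-test, one model of all 12 libraries, 8 residual degrees of freedom) was fitted to all 14279 genes kept. A Benjamini-Hochberg adjusted p under 0.05 was a call, with no fold threshold. SEs were derived from the F statistic, and 95% intervals from SE and the t distribution. The test was also run on simulated counts. That simulation gave every gene the same spread and changed few genes, unlike these data. It therefore does not show how the test behaves in the CrOE EV comparisons. In total 27 symbols had become spreadsheet dates and none is used. A group at 3 counts or fewer is at the detection floor.

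All 10 genes are named; in each other list and comparison up to 2 rises and 2 falls with the largest change and an average log2 CPM of at least 1 could be named. The genes and lists were chosen with earlier results of these data known. Alternatives were DESeq2 1.42.0, its size factors in edgeR, library totals only, every gene with any count kept, a minimum of 10 counts per library throughout, a block for the replicate number, only the 2 groups compared, each library left out, and, added after seeing the data, the summed counts of Hyal1 and Nat6. Has2os and Cemip2 have no row in the table; Tmem2 is listed. One gene of the lists is not reported here by name.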

Additional observations from a re-analysis of the deposited data

Results flagged for a closer look

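Hyal2 was picked out because its change against untreated cells had opposite directions with different EVs. The rule also required both changes and the direct difference to be calls. The direct test below was thus part of the choice and is no further support. Hyal2 rose after CrOE EVs (log2 fold change 0.30) and fell after shCon (-0.40) and shCr EVs (-0.35). The direct test of the difference gave 0.70 for CrOE against shCon EVs (adjusted p = 9.26e-08, edgeR) and 0.65 for CrOE against shCr EVs (adjusted p = 1.62e-07, edgeR). In both, all 3 CrOE EV libraries were above all 3 of the other group. Leaving out each library in turn gave 0.66 to 0.72 and 0.63 to 0.67.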

How the results depend on the processing

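Apart from leaving out libraries, 6 planned recalculations turned the direction of a value, each in a comparison where that gene was no call. Hapln4 for shCr EVs against untreated cells went from 0.0050 to -0.0010 with DESeq2 size factors, -0.0070 with library totals only, -0.0010 with DESeq2, -0.0010 without a filter and -0.0020 with the other groups left out. Has3 for CrOE against shCon EVs was 0.0060 with the replicate block. With Hyal1 and Nat6 summed, an alternative chosen after seeing the data, Hyal1 was at 0.010 after shCon EVs and 0.12 after shCr EVs. Has2 kept its direction under all settings run. A minimum of 10 counts per library removed Has1, which has no value there.

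Leaving out each library moved some values across zero, in comparisons where the gene was no call, over these ranges of log2 fold change. For Hapln4 they were -0.039 to 0.048 (shCr against untreated) and -0.072 to 0.030 (CrOE against shCon). For Has1 they were -0.24 to 0.52 (shCr against shCon), -0.35 to 0.25 (CrOE against shCon) and -0.57 to 0.30 (CrOE against shCr). For Has3 they were -0.20 to 0.31, -0.27 to 0.24 and -0.12 to 0.0050 in the same order. Hyal1 and Tnfaip6 ranged over -0.015 to 0.18 and -0.17 to 0.17 (shCr against shCon), and Cd44 over -0.089 to 0.010 (CrOE against shCr). The cause was not tested.

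Between shCr and shCon EVs, the count of calls over all genes was 1247 and became 639 with the other groups left out and 632 to 1396 when a library was left out, with 632 without shCon replicate 2, 666 without shCon replicate 3 and 688 without shCon replicate 1. Of the 10 hyaluronan genes, 2 were calls there, 1 with DESeq2 size factors, without a filter, with the replicate block or with only these 2 groups, and 0 to 2 when a library was left out. The 4 calls among the other listed genes became 2 with only these 2 groups and 2 to 7 when a library was left out (7 without shCr replicate 1). Shares of Has2 among the synthases moved beyond their SD when divided by length, to 89.7%, 87.1% and 71.7%. No other count of calls moved by over 1.5 times.

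The labels state no pairing of replicate numbers across groups. Same-numbered libraries of different groups had deviations correlated at -0.20 to 0.32, 4 of 18 pairs above 0.1. For libraries with different numbers the range was -0.36 to 0.35, with 7 of 36 pairs above 0.1. In all, 5 of 12 libraries correlated best with their own number. Whether same-numbered libraries shared a batch was not tested. The block made Has1 after shCr EVs (adjusted p = 0.0237) and Tnfaip6 after CrOE EVs (adjusted p = 0.0481) calls and lost Cd44 between shCr and shCon EVs (adjusted p = 0.0554, edgeR). Depth limits Has1, Has3 and Hapln1.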
